A study of Mus musculus with 18 samples.

Results

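Long noncoding RNAs of mouse male germ cells were examined for 300 loci, of 13218 in the table, whose RNA was present in libraries labelled pacSC (pachytene spermatocytes) and still present in libraries labelled rST (round spermatids). Levels are in FPKM, the fragments counted per kilobase of a transcript and per mapped fragments of its library. The loci were chosen by measured level. P is the mean of replicates 1 and 2 of the type labelled pacSC, S the mean of replicates 2 and 3 of rST, and G the mean of all 3 priSG-B libraries. Both P and S had to be at least 5 FPKM, and each at least 8 times G + 0.1. The ratio P/S had to lie between 0.25 and 4. These criteria were met by 346 loci. The choice also dropped 17 by name (16 with names ending in os, and Pvt1), and of the 329 left it kept the 300 with the highest P + S.

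The study took germ cells from the testes of ICR mice, an outbred strain, and sorted them by sedimentation speed, which depends mainly on cell size. Of the 6 labelled types, priSG-A came from mice of postnatal day 6 and priSG-B from day 9, plpSC from day 14 and pacSC from day 21, and rST and elST from days 35 and 56. Each type has 3 libraries. The labels give no genotype or treatment beyond strain and age. None of these names is spelled out there; they are usually read as primitive type A and type B spermatogonia, preleptotene and pachytene spermatocytes, and round and elongating spermatids. The series design mentions duplicates, whereas 3 numbered libraries are labelled per type, and no label says whether they came from separate animals. P-values therefore reflect the spread among libraries alone, and that spread may be technical.

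Spermatogonia divide by mitosis, spermatocytes pass through meiosis, and spermatids are the haploid cells that build the acrosome and the flagellum. Pachytene is the long stage of meiosis in which paired chromosomes recombine, and it is also when a wide wave of testis transcription starts, noncoding RNA included. The transcription factor A-MYB drives much of that wave, among it the precursors of pachytene piRNAs, while CREM and RFX2 act on genes of spermatids. Most of the transcripts described here carry serial names: 152 end in Rik and 141 begin with Gm.

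Several libraries went against their labels, and the loci themselves show it. At least 298 of the 300 were at 1 FPKM or more in each of 8 libraries, which were plpSC replicate 3, all 3 pacSC libraries, rST replicates 2 and 3 and elST replicates 2 and 3. Their median level there was 14.2 to 21.5 FPKM. In 9 other libraries, priSG-A and plpSC replicates 1 and 2, all of priSG-B, rST replicate 1 and elST replicate 1, the median was 0.00351 to 0.356 FPKM, and 17 to 77 of the loci reached 1 FPKM. The library labelled priSG-A replicate 3 stood between, with 273 loci at 1 FPKM or more and a median of 4.67 FPKM. The priSG-A, plpSC, rST and elST labels thus each join libraries in which the loci are at high and at low levels. The choice used only pacSC, rST and priSG-B libraries, so the high level in plpSC replicate 3 was not selected for.

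**Figure D1:**
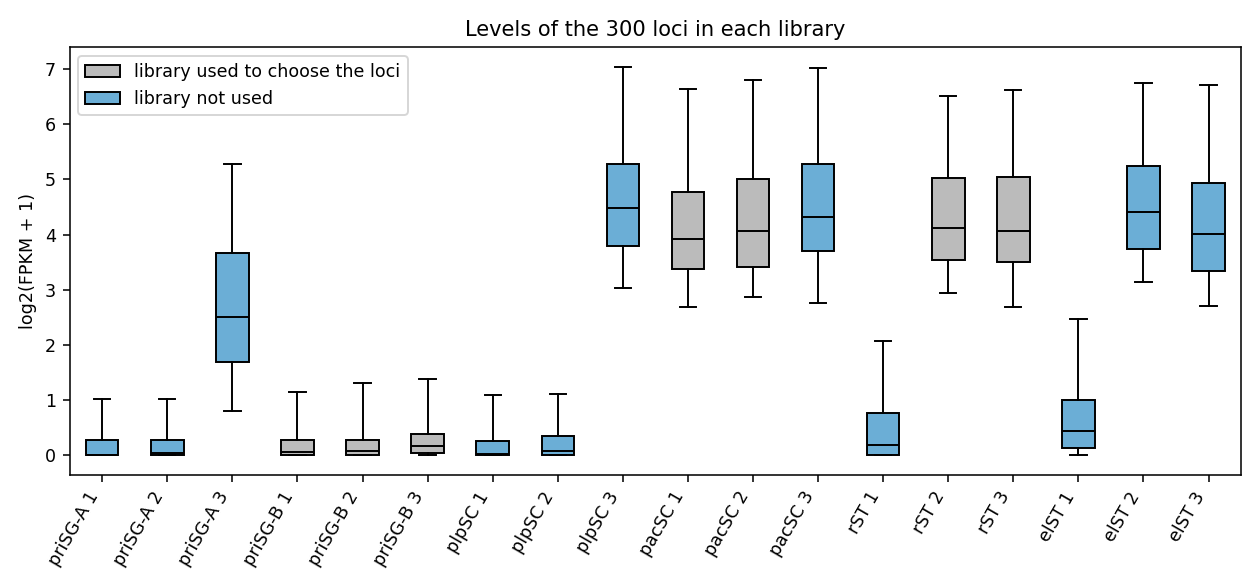
Levels of the 300 loci in each of the 18 libraries, as log2(FPKM + 1). Each box spans the quartiles with the median as a line, whiskers reach the 5th and 95th percentiles, grey boxes are libraries that chose the loci and blue boxes are libraries that did not; plpSC replicate 3 and elST replicate 2 stand as high as the pacSC libraries and rST replicates 2 and 3, while rST replicate 1 and elST replicate 1 stand near 0.

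The library labelled elST replicate 3 was close to pacSC replicate 2, with a Pearson r of 0.98 over the 4117 loci that reached 1 FPKM in 3 or more libraries (log2(FPKM + 1), across loci, which are not replicates) and 0.95 over the 300. It therefore adds little beyond the libraries that chose the loci. In the tests of elST, the members' median change and those of the named loci are given with and without it. Other counts and means of elST include it. Whether labels were exchanged between libraries was not tested, and each comparison below is one of labels. Libraries also differed in AY036118, a locus derived from ribosomal RNA, which stood at 7.25 to 36.2 FPKM in priSG-B, pacSC replicates 1 and 2 and elST replicate 3, and at 1998 FPKM or more in the other 12. P and G come from the first set and S from the second, so within P/S the cell type and this difference cannot be told apart. Inferred depth was 31.7 to 92.2 M (mega) fragments. The table holds noncoding loci, so coding markers were read through loci that overlap them: 10 of 48 markers had one, and no such locus is among the 300. The locus 1700027A15Rik, which overlaps Tnp1 (a transition protein of spermatid chromatin) on the other strand, was at 73.0 to 4539 FPKM in the 8 libraries with high levels, 11.8 in priSG-A replicate 3 and at most 0.570 in the other 9. Its reads cannot be told apart from those of Tnp1. Loci of other markers did not all follow it. That over the spermatid gene Crem did, at 1.48 to 2.86 FPKM in the 8 libraries and at most 1.23 in the 9. The locus over Gfra1 of spermatogonia was highest in plpSC replicate 3 (4.26 FPKM) and pacSC replicate 3 (3.42), above 2.67 to 2.98 in priSG-B. Loci over Uchl1 of spermatogonia were at most 0.361 FPKM. The locus over Prm1, another spermatid gene, was at most 0.214 FPKM in every library and listed at 0 throughout rST. It shares no exon with Prm1, so its level need not follow that of Prm1. Tmem147os has exons that overlap Gapdhs on 1 of its rows, which was at 0.982 to 3.19 FPKM. Its other row, at 1.21 to 6.12 FPKM, shares no exon with Gapdhs. Loci over the spermatocyte genes Piwil1 and Ccna1 were at 4.73 and 5.28, and 3.24 and 3.71 FPKM, in pacSC replicates 1 and 2. In pacSC replicate 3 they were at 0.202 and 0.613 FPKM, and in elST replicate 3 at 4.85 and 3.49. In priSG-A replicate 3 they were at 3.06 and 1.87 FPKM, in plpSC replicate 3 at 0.757 and 2.01, and in elST replicate 2 at 0.878 and 3.12. Loci over Cyp11a1 of Leydig cells and Cdh5 of endothelium were at most 0.668 and 0.0730 FPKM. How the mix of cells bears on the levels below was not tested. In bulk RNA, fewer cells of a type and less RNA per cell cannot be told apart.

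By the values that chose them, the loci had a median P of 15.5 and a median S of 16.6 FPKM, against a median G of 0.0797 FPKM. G was listed at 0 for 43 of them. P/S was over 2 for 57 loci, under 0.5 for 72 and between for 171, with a median of 0.924. Only 20 had P or S at 100 FPKM or more, and the 6 highest carried 28.3% of the summed P + S. These are descriptions of the choice and carry no test.

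**Figure D2:**
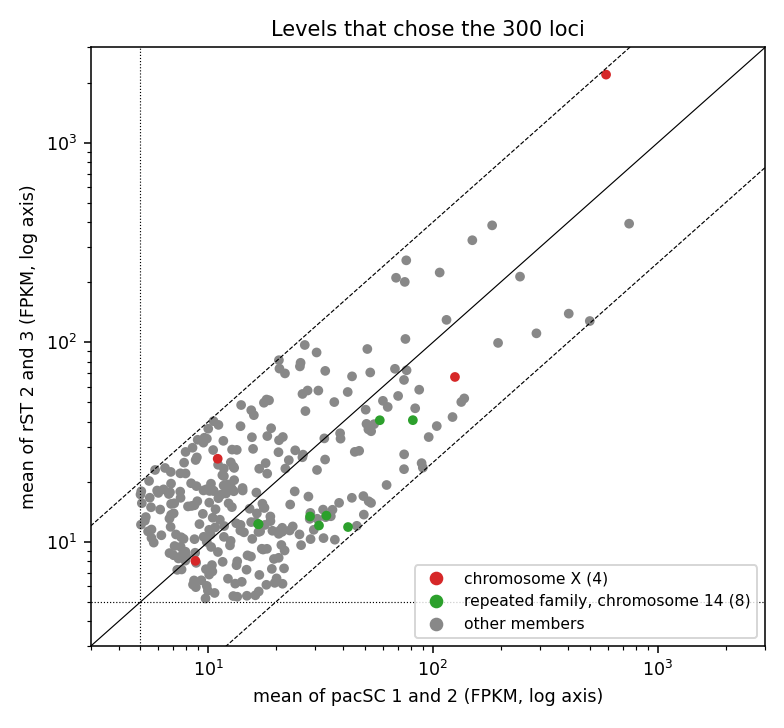
P (mean of pacSC replicates 1 and 2) against S (mean of rST replicates 2 and 3) for the 300 loci, both in FPKM on log axes. The solid line is P = S, dashed lines are the 4-fold bounds and dotted lines the 5 FPKM bounds; the top right point is 4930570D08Rik on chromosome X, and green points are 8 members of a repeated family on chromosome 14, among which reads may be split.

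At the edges of the choice, members and non-members had nearly the same values. Gm37912 was taken with P of 5.004 FPKM and 1700051K13Rik was left out at 4.99, and 4930591A17Rik was taken with S of 5.21 while 4930447J18Rik was left out at 4.97. For P/S, 4933433G19Rik at 0.253 and Gm2762 at 3.90 were inside, and AY702102 at 0.249 and 1700108J01Rik at 4.003 outside. Against G + 0.1, 4933438K21Rik was inside at 8.01 times for P and 2810408I11Rik outside at 7.53, and for S 1810044D09Rik was inside at 8.51 and Gm9828 outside at 6.48. The last member by P + S was 4930554I06Rik at 14.5331 FPKM, and 1700110I07Rik was left out at 14.4474.

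The highest member was 4930570D08Rik (chromosome X, 133898699 to 133901213, minus strand), a processed transcript of 2 exons whose nearest coding gene is Tspan6. It carried 12.8% of the summed P + S. Its spliced transcript in GENCODE M21 is shown because this single short RNA outranks every other member; none of it matches the annotated small RNA genes searched.
4930570D08Rik: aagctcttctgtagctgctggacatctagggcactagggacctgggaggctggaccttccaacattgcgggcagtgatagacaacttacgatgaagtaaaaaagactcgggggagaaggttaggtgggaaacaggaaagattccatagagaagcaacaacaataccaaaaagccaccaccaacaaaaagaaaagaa
At 196 bases it is shorter than the inferred fragment length of 198 to 267 bases, so its FPKM rests on how the authors' tool scales such short transcripts. It was listed at 0, 0 and 34.3 FPKM in priSG-A, at 0 throughout priSG-B and at 0, 0 and 599.9 FPKM in plpSC. In pacSC it stood at 575, 602 and 1311 FPKM, followed by 0, 2047 and 2335 in rST and 0, 571 and 476 in elST. It was listed at 0 in 9 libraries and at 34.3 FPKM or more in the other 9, and the high and low libraries are the same as for the whole set. Chromosome X is silenced in pachytene spermatocytes as textbook knowledge, and this locus was at 575 FPKM or more in all libraries labelled pacSC. Replicates 1 and 2 of pacSC chose it for a high level. The locus overlapping the spermatid gene Tnp1 was at 75.8, 84.9 and 1195 FPKM in pacSC. Which cells held the RNA of 4930570D08Rik was not tested.

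The loci of the whole table most like it over the 11 libraries that the choice did not use were 4930538E20Rik, 1700101O22Rik, Gm32764, 1700013D24Rik and Gm10545, with r of 0.996 to 0.999 on log2(FPKM + 1). The points share the split into high and low libraries, which many loci follow. Of these 5, 4930538E20Rik, 1700101O22Rik and 1700013D24Rik are members, while Gm32764 and Gm10545 had P of 3.30 and 2.47 FPKM.

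The next by P + S was the lincRNA 1700008K24Rik (chromosome 17, 49112263 to 49113535, minus strand), which lies between genes. It was at 0, 0 and 232 FPKM in priSG-A, 0.387, 0.901 and 1.78 in priSG-B and 0.253, 0.574 and 362 in plpSC. The pacSC libraries held 677, 813 and 266 FPKM, those of rST 27.6, 455 and 329.8 and those of elST 24.8, 397 and 707. Unlike 4930570D08Rik it was highest in pacSC replicates 1 and 2 and in elST replicate 3, and it left a trace of 24.8 to 27.6 FPKM in rST replicate 1 and elST replicate 1.

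Gm2762 (chromosome 13, 53393657 to 53455630, plus strand), an intergenic transcript of 11 exons, had the same order. It was at 474, 522 and 118 FPKM in pacSC, 26.0, 158 and 97.9 in rST and 32.2, 272 and 492 in elST. Its levels were 1.25, 1.72 and 244 FPKM in plpSC, 0.0634, 0.671 and 202 in priSG-A and 1.79, 2.63 and 2.40 in priSG-B. Of the members it lay nearest the upper bound of P/S.

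Gm50238 and 1700030C12Rik, also among the 6 highest, were higher in rST replicates 2 and 3 than in pacSC replicates 1 and 2. Gm50238 (chromosome 17, 28076418 to 28080295, minus strand) shares exon sequence on the same strand with Tcp11, a testis gene of sperm function, so its reads cannot be told apart from those of Tcp11. It stood at 181, 185 and 102 FPKM in pacSC, 1.55, 564 and 207 in rST and 3.63, 205 and 184 in elST, with 0, 0.959 and 233 in plpSC, 0, 0.616 and 56.4 in priSG-A and 1.44, 1.53 and 1.93 in priSG-B. 1700030C12Rik (chromosome 11, 23497753 to 23499661, plus strand) starts head to head with Ahsa2, which belongs to a family of Hsp90 co-chaperones, and overlaps its exons. It stood at 148, 151 and 218 FPKM in pacSC, 1.02, 312 and 337 in rST and 1.80, 251 and 144 in elST, with 0, 0.270 and 221 in plpSC, 0.259, 0.367 and 65.4 in priSG-A and 0.0373, 0.227 and 0.415 in priSG-B. An annotated miRNA gene, Gm47279, overlaps 87 of its bases on the other strand.

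One member did not follow this pattern. Gm28872 (chromosome 4, 132270056 to 132270213, plus strand) is a single exon of 158 bases, and bases 25 to 158, in capitals, are the exact reverse complement of Rnu11, the U11 small nuclear RNA of the minor spliceosome.
Gm28872: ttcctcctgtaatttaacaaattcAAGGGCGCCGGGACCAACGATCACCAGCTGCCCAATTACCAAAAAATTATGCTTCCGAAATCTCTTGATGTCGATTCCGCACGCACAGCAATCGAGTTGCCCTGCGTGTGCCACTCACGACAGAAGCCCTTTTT
The TruSeq RNA kit that the study used keeps no record of strand, so fragments of this locus and of U11 RNA cannot be told apart. It was listed at 981, 418 and 233 FPKM in priSG-A, at 0 throughout priSG-B and at 531, 233 and 0 FPKM in plpSC. In pacSC it was listed at 0, 389.5 and 247 FPKM, in rST at 369.6, 24.6 and 174 and in elST at 771, 59.4 and 446. The 3 highest values were in libraries where the other members were near 0, and in priSG-A replicate 1 it made up 93.3% of the summed level of all 300 loci. It had the highest mean of all members in elST, and also over priSG-A and plpSC together; the next 3 were 4930570D08Rik, 1700008K24Rik and Gm2762 in both, in differing order. An exact 0 of a locus this short can be a failed estimate.

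The comparisons open to a test are among priSG-A, plpSC and elST, whose libraries did not choose the loci. Of these, plpSC replicate 3 and elST replicates 2 and 3 had profiles close to libraries that did. Limma, a linear model that shares its estimate of spread across loci, was fitted to log2(FPKM + 1) of all 4117 loci that reached 1 FPKM in at least 3 libraries. All 300 passed this filter, through the libraries that chose them. A log2 fold change on this scale understates the change of low loci. The 3 comparisons share libraries, so each is given by its own values.

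In plpSC against priSG-A, the day 14 type against the day 6 type, the members lay higher in median without passing the test. The median log2 fold change was 0.68, against 0.13 over all loci tested, and 287 of 300 members were above 0, as were 59.6% of all loci. None of the 300 was called at an adjusted p under 0.05 (limma, two-sided, Benjamini-Hochberg), and 0% of all loci tested were called. At an unadjusted p under 0.05 limma gave 0 members and 5 loci in all. The value turned with 1 library: without plpSC replicate 3 the median was -0.75. For 4930570D08Rik the log2 fold change was 1.36 ± 3.21 (SE, limma adjusted p = 1), and for 1700008K24Rik it was 0.54 ± 2.79.

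In elST against priSG-A, the day 56 type against the day 6 type, the members' median log2 fold change was 2.07, against 0.52 over all loci. The number above 0 was 299 of 300, against 69.7% of all loci. Limma called 0 members and 0% of all loci tested; at an unadjusted p under 0.05 there were 2 members and 46 loci. Without elST replicate 3 the median was 1.56, and without elST replicate 1 or 2 it was 3.31 or 1.34. 1700008K24Rik had a log2 fold change of 4.98 ± 2.79 and 4930570D08Rik one of 4.31 ± 3.21 (SE, limma adjusted p = 0.526 for each). Without elST replicate 3 these changes were 4.04 and 2.87. Both types join libraries at high and at low levels.

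In elST against plpSC, the day 56 type against the day 14 type, the median was 1.37, against 0.29 over all loci, and all 300 members were above 0, against 70.4% of all loci. Limma called 0 members and 0% of all loci tested; at an unadjusted p under 0.05 there were 1 member and 15 loci. The median was 0.86 without elST replicate 3, 0.63 without elST replicate 2 and 2.78 without plpSC replicate 3. 1700008K24Rik had a log2 fold change of 4.44 ± 2.79 and 4930570D08Rik one of 2.94 ± 3.21 (SE, limma adjusted p = 0.932 for each).

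The calls depended on 3 libraries. Without priSG-A replicate 3, plpSC replicate 3 and elST replicate 1, the 3 in these types whose profiles differed from the others of their label, limma called 297 of 300 members higher in elST than in priSG-A, with 59.8% of all loci tested called in either direction. It called 297 higher in elST than in plpSC as well, with 60.9% of all loci called. Between plpSC and priSG-A it called 0 members and 0% of all loci. These libraries were left out because of their profiles, in which the members themselves take part, so the counts describe the split and are no independent test.

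Among the libraries with high levels, the members did not all keep one order. The 57 members with P/S over 2 had a median of 30.8 FPKM in elST replicate 3 and 13.3 in pacSC replicate 3. The 72 with P/S under 0.5 had 9.29 and 27.5 FPKM in the same libraries. So elST replicate 3 had the order of pacSC replicates 1 and 2, and pacSC replicate 3 had that of rST replicates 2 and 3. In plpSC replicate 3 both classes were close, at 20.4 and 25.6 FPKM, and in elST replicate 2 at 23.0 and 25.2 FPKM. In AY036118, elST replicate 3 is like pacSC replicates 1 and 2, and pacSC replicate 3 like rST, so the 2 differences cannot be told apart here.

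In priSG-A replicate 3, and at levels near the floor in rST replicate 1 and elST replicate 1, the classes had the order of pacSC replicates 1 and 2. AY036118 was high in these libraries, and how it bears on the order was not tested. In priSG-A replicate 3 the class with P/S over 2 had a median of 11.9 FPKM and the class under 0.5 one of 2.73. In rST replicate 1 the medians were 0.636 and 0.0561 FPKM, and in elST replicate 1 0.766 and 0.194. Over all members, priSG-A replicate 3 stood at a median of 31.9% of P, with quartiles of 17.7 and 49.6%, so it is not a fixed fraction of the pacSC level. Its level was below P for 289 of 300 members.

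**Figure D3:**
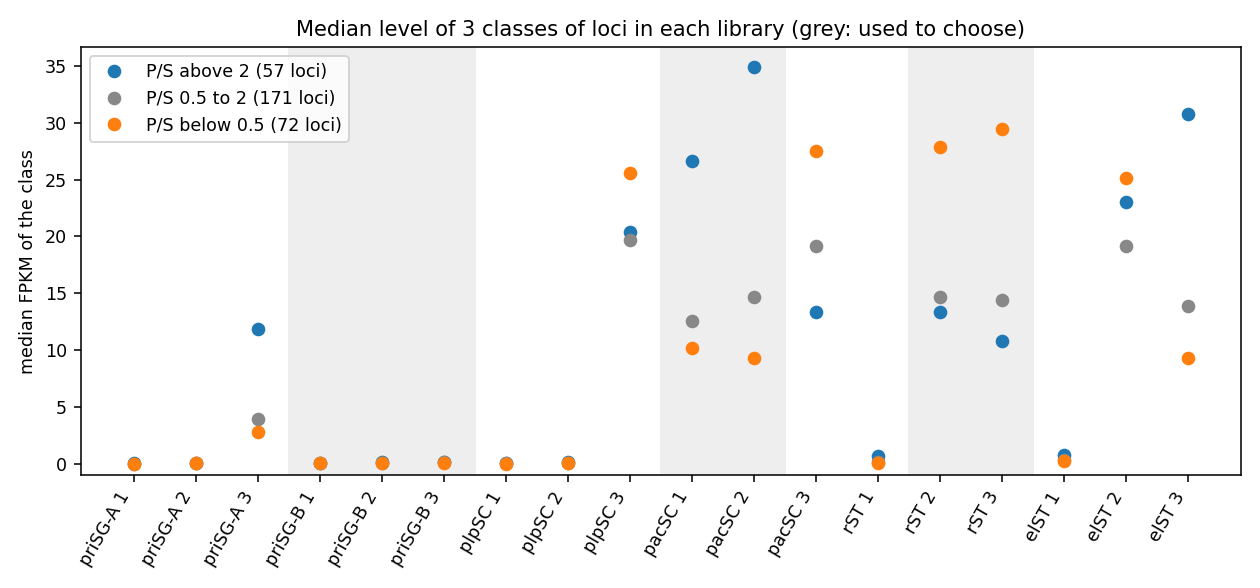
Median level in FPKM of 3 classes of members, split by P/S, in each of the 18 libraries; libraries on grey chose the loci and set the classes. The class with P/S over 2 leads in elST replicate 3 and priSG-A replicate 3, and the class under 0.5 leads in pacSC replicate 3.

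In the 4 libraries priSG-A and plpSC replicates 1 and 2, 81 members were listed at 0 throughout and 30 reached 1 FPKM in at least 1. Across all 18 libraries 5 members stayed at 1 FPKM or more. 4 of these 5 share exon sequence with a coding gene on the other strand: Gm36423 with Zmynd11, a chromatin reader, Gm50240 with Btbd9, 4930539J05Rik with the ubiquitin-conjugating enzyme gene Ube2d3, and Gm19412 with Tapbp and Zbtb22. Gm36423 was at 1.33 to 1.76 FPKM in priSG-B and in replicates 1 and 2 of priSG-A and plpSC, and at 69.9, 82.2 and 259 FPKM in pacSC. The 5th, 1810044D09Rik, lies between genes, and is described with its promoter below.

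Most members overlapped no coding gene. By M21, 59.3% of the 295 matched members were intergenic, against 46.7% of the tested loci, and 68 (23.1%) shared exon sequence with a coding gene on the other strand, against 27.9%. Without strand, reads of these 68 and of their partners cannot be told apart. Single-exon loci made up 10.8% of members and 28.8% of tested loci. TEC loci, whose transcripts still await experimental proof, made up 3.39 and 19.7%. Members inside a coding gene on its own strand, where unspliced RNA of the gene would be counted, made up 2.37 and 12.2%. The median exon length was 886 bases, against 1185 over the tested loci. These are descriptions with no test.

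Head-to-head starts, within 1000 bases of a coding start on the other strand, were found for 61 members (20.7%), against 19.1% of tested loci. In the 211 loci with pacSC replicates 1 and 2 at 4-fold or more over rST replicates 2 and 3 the share was 21.9%, and in the 392 loci of the reverse kind it was 7.97%. The members' share was thus near that of all tested loci, as was that of the 211. The differences were not tested. The highest were 1700030C12Rik, above, 1700016J18Rik with Armc2, a gene of the sperm flagellum, Gm50240 with Btbd9, and 0610009L18Rik with the actin gene Actg1. 1700016J18Rik (chromosome 10, 42018216 to 42018810) was at 233, 255 and 174 FPKM in pacSC, 3.23, 195.2 and 231 in rST and 4.78, 176 and 276 in elST, and at 0.524, 0.447 and 174 in plpSC. 0610009L18Rik (chromosome 11, 120348678 to 120351190) was at 95.5, 112 and 17.0 FPKM in pacSC and 2.49, 55.5 and 20.5 in rST, and shares no exon with Actg1. Gm29050 (chromosome 17, 5388763 to 5419652), which overlaps the lactate dehydrogenase-like gene Ldhal6b, was at 274, 303 and 129 FPKM in pacSC, 9.13, 128 and 93.7 in rST and 9.65, 280.1 and 283 in elST.

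**Figure D4:**
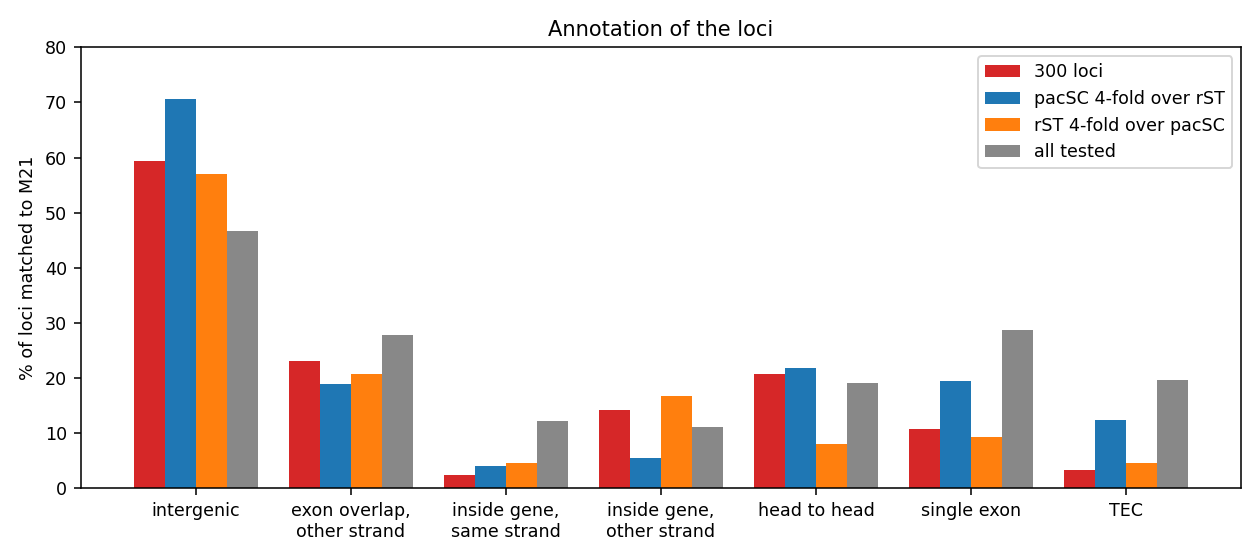
Share of loci, in % of those matched to GENCODE M21, with each kind of annotation, for the 300 members, the loci 4-fold or more higher in either direction between pacSC replicates 1 and 2 and rST replicates 2 and 3, and all 4117 tested loci. Members stand at 59.3% intergenic and 10.8% single exon, against 46.7 and 28.8% of all tested loci. The loci higher in rST stand at 57.1 and 9.25%, and those higher in pacSC at 70.6 and 19.4%.

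Members with exon overlap on the other strand stood at a median of 44.9% of P in priSG-A replicate 3, and intergenic members at 27.3%. In rST replicate 1 they stood at 2.01% and 0.301% of S. Overlapping members thus kept a larger share in both libraries. Reads of the coding partner would be counted in them as well, and their part in this was not tested. The names that follow were picked after their partners were seen. 4930518J20Rik starts head to head with Tdrd5, a gene of the piRNA pathway, and was at 59.5, 66.3 and 45.5 FPKM in pacSC and 0.433, 38.7 and 56.2 in rST. 1700097N02Rik and Gm9937 both overlap exons of Dnah8, a dynein heavy chain of the sperm tail, and had P of 138 and 89.0 and S of 52.3 and 24.8 FPKM. 1700097N02Rik also shares exon sequence with Glo1 on its own strand.

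RefSeq lists 10 of the 213 members matched by symbol as protein-coding, which is 3.33% of all members, against 1.02% of tested loci. A symbol was matched for 71.0% of members and 46.9% of tested loci. The highest were Gm10840, 1700065D16Rik, Gm2396 and Srsx. Gm10840 (chromosome 11, 106160193 to 106161158) stood at 72.3, 80.3 and 37.6 FPKM in pacSC, 1.07, 82.6 and 62.2 in rST and 1.78, 71.5 and 76.5 in elST. 1700065D16Rik (chromosome 9, 95855418 to 95858322) overlaps and starts head to head with Atr, the kinase that starts the silencing of unpaired sex chromosomes in meiosis. It stood at 27.8, 26.4 and 32.8 FPKM in pacSC, 1.30, 41.6 and 48.8 in rST and 1.69, 32.6 and 28.3 in elST, and at 0.516 to 1.96 FPKM in priSG-A and plpSC outside replicate 3. Its reads cannot be told apart from those of Atr. Gm2396 (chromosome 9, 88878994 to 88937342), of 23 exons, stood at 20.7, 22.3 and 93.9 FPKM in pacSC and 0.324, 15.3 and 51.8 in rST, and holds a small nucleolar RNA gene of 125 bases on the other strand. It shares 22.2% of its stretches of 50 bases with genes elsewhere.

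On the sex chromosomes, 4 members lay on X (1.33%, against 1.89% of tested loci) and 3 on Y (1.00%, against 0.534%). On X were 4930570D08Rik, Gm27192, Srsx and Astx5. Gm27192 (24422751 to 24424779) was at 116, 134 and 145 FPKM in pacSC, 0, 61.9 and 72.2 in rST and 0.682, 136 and 119 in elST. Srsx (123221399 to 123222481) was at 12.8, 9.30 and 56.7 FPKM in pacSC, 0.629, 15.3 and 36.9 in rST, 0.754, 76.3 and 11.6 in elST and 0.522, 0.0484 and 78.5 in plpSC, so its highest values were in plpSC replicate 3 and elST replicate 2. Astx5 (123890522 to 123893407) had the same order, with 26.8 and 28.7 FPKM there against 8.48, 9.08 and 17.99 in pacSC. Of the Y-linked members, Gm37473 was the highest, with P of 54.7 and S of 38.9 FPKM. Astx5 shares 95.5% and Gm37473 68.8% of their stretches of 50 bases with genes elsewhere, Gm27192 31.6% and Srsx 24.7%, so these levels may hold reads of other copies and are uncertain.

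Repeated sequence makes some members uncertain. Of the 295 with M21 transcripts, 48 shared at least 1 stretch of 50 bases with a gene elsewhere, and 19 shared more than 50% of their stretches. The largest group was a family of 8 loci on chromosome 14 (4933406F09Rik, Gm48105, Gm26655, Gm17188, Gm26630, Gm26680, Gm26893 and Gm26552), each with 4 exons. Reads may be split among them, so only their sum is read. Summed, they stood at 259, 356 and 157 FPKM in pacSC, 6.53, 149.6 and 164 in rST and 8.43, 141 and 274 in elST, and at 1.57, 2.75 and 151 in plpSC and 1.57, 2.26 and 122 in priSG-A. The sum was highest in pacSC replicates 1 and 2 and elST replicate 3. They are part of the 27 members on chromosome 14, which are 9.0% of all members, against 4.71% of tested loci.

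Promoter windows from RefSeq (GRCm38.p6, the assembly of mm10; 250 bases before to 50 after a start) were found for 137 members, and were searched on both strands for 4 motifs. GGCAGTT, the core bound by A-MYB, was in 18 windows (13.1%), against 6.58% of 1033 windows of other tested loci and 4.12% of all 32851 windows. It lay in the 100 bases before the start or the first 50 after it in 16 member windows (11.7%), against 4.65 and 2.22%. The full cAMP response element TGACGTCA, bound by CREM, was in 2 windows (1.46%, against 2.71 and 1.79%). Its shorter form TGACG, which the full element contains, was in 21.9%, against 24.01 and 20.8%. The palindromic X-box of RFX factors was in 1 window (0.730%, against 0.484 and 0.128%). A match of letters is a description and not a bound site, and no test was made.

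**Figure D5:**
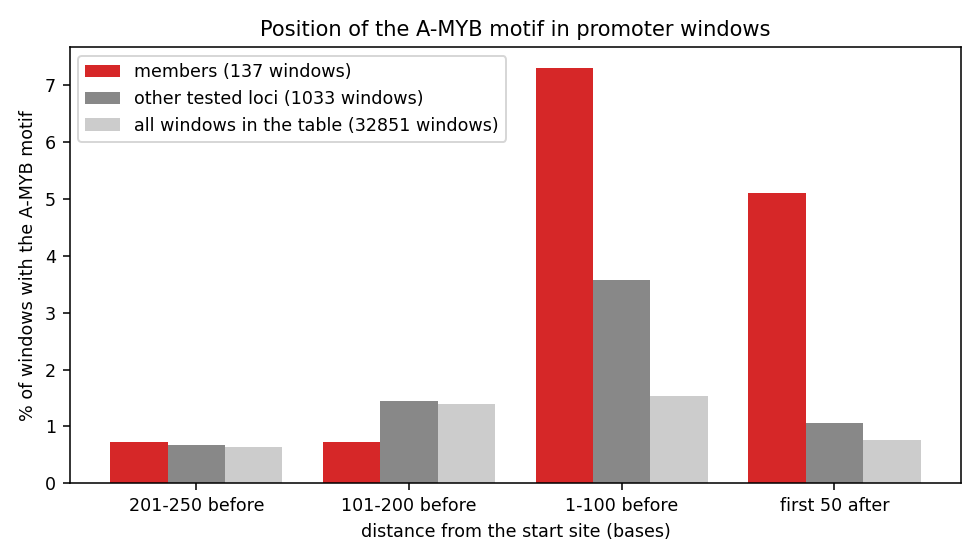
Share of promoter windows, in %, that hold the A-MYB motif in each part of the window, by distance from the start site in bases, for 137 member windows, 1033 windows of other tested loci and all 32851 windows. Members stand at 7.30% at 1 to 100 bases before the start, against 3.58% of other tested loci. In the first 50 bases after it they stand at 5.11%, against 1.06%. The parts are 100 or 50 bases wide, so shares of parts of unlike width cannot be compared.

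The windows that follow show the motifs in capitals, in the strand of each gene and with the start after base 250. 1700008K24Rik is the highest member with a match, 1700016K05Rik holds 2 copies side by side on the other strand (AACTGCC), 4930473H19Rik holds an X-box as well, and 1810044D09Rik holds a full cAMP response element and no A-MYB motif.
1700008K24Rik, chr17:49113484-49113783, minus strand: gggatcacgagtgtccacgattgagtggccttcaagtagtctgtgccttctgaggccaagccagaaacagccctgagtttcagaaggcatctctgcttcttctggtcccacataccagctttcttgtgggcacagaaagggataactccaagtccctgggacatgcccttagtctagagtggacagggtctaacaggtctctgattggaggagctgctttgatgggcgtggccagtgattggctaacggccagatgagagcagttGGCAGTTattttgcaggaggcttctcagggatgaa
1700016K05Rik, chr17:66714206-66714505, plus strand: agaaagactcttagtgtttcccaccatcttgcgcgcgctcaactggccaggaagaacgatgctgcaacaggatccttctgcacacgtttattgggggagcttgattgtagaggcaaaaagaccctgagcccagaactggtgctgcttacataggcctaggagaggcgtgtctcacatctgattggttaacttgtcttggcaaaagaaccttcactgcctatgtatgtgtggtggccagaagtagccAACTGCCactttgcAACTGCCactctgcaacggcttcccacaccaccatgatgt
4930473H19Rik, chr12:88442184-88442483, minus strand: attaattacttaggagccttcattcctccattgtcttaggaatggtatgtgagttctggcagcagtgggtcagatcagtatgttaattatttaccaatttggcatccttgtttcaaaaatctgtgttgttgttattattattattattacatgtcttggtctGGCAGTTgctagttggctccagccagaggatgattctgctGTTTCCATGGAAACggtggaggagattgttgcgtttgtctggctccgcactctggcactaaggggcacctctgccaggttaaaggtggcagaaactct
1810044D09Rik, chr6:91440737-91441036, plus strand: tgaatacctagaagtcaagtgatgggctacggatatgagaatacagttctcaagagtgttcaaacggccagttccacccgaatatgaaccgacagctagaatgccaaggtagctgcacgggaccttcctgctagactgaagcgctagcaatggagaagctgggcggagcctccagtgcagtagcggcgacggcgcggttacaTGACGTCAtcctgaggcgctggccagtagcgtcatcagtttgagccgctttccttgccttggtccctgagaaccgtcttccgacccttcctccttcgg

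The levels of these members differed in order. 1700016K05Rik, inside the phosphatase gene Ptprm on the other strand, stood at 21.8, 23.9 and 16.6 FPKM in pacSC, 0.592, 32.1 and 19.3 in rST and 0.143, 29.6 and 22.8 in elST. 4930473H19Rik, which overlaps exons of Adck1, stood at 11.5, 14.1 and 25.3 FPKM in pacSC and 0.0331, 31.9 and 26.1 in rST. 1810044D09Rik stood at 71.9, 76.7 and 27.5 FPKM in pacSC and 3.41, 88.0 and 41.5 in rST, and at 7.98, 7.51 and 7.05 in priSG-B. The A-MYB motif was in 9 of 69 windows of members with P above S (13.0%) and 9 of 68 with P below S (13.2%).

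Base composition split the member windows by arrangement. The 29 head-to-head members with a window had a median GC content of 66.0% and a CpG observed-to-expected ratio of 0.845. The other 108 had 47.5% and 0.213. The median over all 137 was 48.7%, against 51.3% for other tested loci and 52.7% over all windows. A head-to-head start can lie in 1 window with that of the coding partner, so this describes the pair.

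Some members lay close together. There were 8 pairs with gaps of at most 10000 bases, among them a run on chromosome 6 of 1700013D24Rik, 1700027F06Rik and Gm44006, with P of 115, 75.4 and 17.9 FPKM. The spans overlap for 1700037C06Rik with Gm13001, 1700110K17Rik with Gm48129 and Gm26611 with Gm2396, which may share reads. No such count was made over the tested loci, so the pairs are not read as clustering. Of a list of 35 long noncoding RNAs with a published role, such as H19, Malat1 and Meg3, 32 are in the table and 0 are members. Of all 13218 loci in the table, 300 are members. Pvt1, which is on the list, met the value criteria (P of 6.79, S of 15.8 and G of 0.622 FPKM) and was dropped by name. The 0 is thus in part set by the choice and is no result about known RNAs.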

How the data were processed

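Long noncoding loci were measured by RNA sequencing in 18 libraries of 6 labelled types, 3 each. Per the labels' protocols, total RNA was made into libraries with a TruSeq RNA kit. The submitters' processing notes name HISAT2, StringTie and mm10, without versions. The annotation and the counting of strand were not stated there. The authors deposited 1 table of FPKM values. All of its library columns were mapped to samples by title.

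From it, loci that reached 1 FPKM in 3 or more libraries were tested as log2(FPKM + 1) with limma 3.58.1 in R 4.3.3 (trend, robust), on the 9 libraries of priSG-A, plpSC and elST, with Benjamini-Hochberg adjustment over all 4117 loci and a threshold of 0.05. The script was tested on simulated data. Members, lists, motifs and rules were chosen with earlier results of these data known. The rule for named loci took the 6 highest by P + S, those nearest each bound (given as the nearest on each side), the 4 highest by mean in elST and in priSG-A with plpSC, the 4 highest on chromosome X, with exon overlap, head to head and with a RefSeq protein entry, and called members, of which there were none; it took no known long noncoding RNA. A locus that it took is not reported here, for a reason unrelated to its values. Loci named for the family, the promoters, Y linkage or presence in all libraries were chosen after their values were seen.

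Annotation was GENCODE M21 of the same assembly, matched by identifier (295 of 300 members). Depth was inferred from FPKM steps in 3994 single-exon loci, where 94.8 to 97.7% of low values were whole within 0.02; no counts were tested. Alternatives varied the pseudocount, filter, normalization, model, libraries and replicate block. Python 3.11.15, pandas 2.3.3 and matplotlib 3.10.9 made tables and figures.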

Additional observations from a re-analysis of the deposited data

How the results depend on the processing

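Limma called 0 members in each of the 3 comparisons, and 0 again under 18 of the 19 alternatives in elST against priSG-A and in elST against plpSC, and under all 19 in plpSC against priSG-A. The exception left out the 3 libraries that stood apart, with 297 and 297 members called higher. Fewer libraries of mixed level make up the groups there, by construction. The 19 alternatives are not separate checks. Keeping libraries with AY036118 at 100 FPKM or more was the same fit as leaving out elST replicate 3. Leaving out a library of a type outside a comparison did not change its fold changes. Leaving out 1 library of 9 at a time gave 0 called members each time. Of all loci tested 0% were called, except 0.0486% without elST replicate 1 in both elST comparisons. The members' median log2 fold changes were -0.75 (without plpSC replicate 3) to 1.42 in plpSC against priSG-A. They were 1.34 to 3.31 in elST against priSG-A and 0.63 to 2.78 in elST against plpSC. Same-numbered replicates were not taken as paired: no label states it, and of 9 same-number pairs the correlation of deviations was 0.39 to 0.87 in 7 but -0.46 and -0.83 for elST replicate 2 with priSG-A and plpSC replicate 2. With a replicate block limma called 0 members in each comparison. Quantile normalization moved the median of all loci by -0.12, -0.47 and -0.32, and relative to it the members' medians were 0.34, 1.30 and 0.98, against 0.55, 1.55 and 1.08 before. In plpSC against priSG-A, 1700008K24Rik turned to -0.77 without priSG-A replicate 1 or 2 and to -2.13 without plpSC replicate 3, and 4930570D08Rik to -1.71 without that library, while without priSG-A replicate 3 they reached 3.16 and 3.08 (limma adjusted p = 1 for each value that turned, 0.881 for the last pair, and 0.881 to 1 over all alternatives). Both were called in elST against priSG-A and plpSC only without the libraries that stood apart (limma adjusted p = 0.000397 and 0.000417, against up to 0.937 and 1 otherwise). Types that mix high and low levels left an SE of 3.21 for 4930570D08Rik in each comparison, and no counting error was computed, since the table holds no counts.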
